A study of Mus musculus with 6 samples.

Results

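The naive T cell transcription and quiescence factors are 10 listed genes, Satb1, Lef1, Tcf7, Klf2, Klf3, Foxo1, Foxp1, Bach2, Tob1 and Btg1, taken wherever an array probe set named 1 of them and no other gene. Such a probe set existed for 9 genes, 1 each, among 19937 genes and 34760 probe sets in the table. Tcf7 was named alone by none and is not analysed here. Affymetrix arrays were hybridised with RNA of CD4+ T cells, which include helper and regulatory T lymphocytes, from C57BL/6 mice 6 weeks old. Cells of CBS-KO mice, which lack cystathionine beta-synthase, the enzyme that condenses homocysteine with serine and also makes hydrogen sulfide, were set against cells of WT mice, with 3 arrays in each group that the labels call biological replicates. The sources used here do not say how or in which cells CBS was deleted, or how the T cells were isolated.

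A naive T cell that has not met its antigen is kept small, long-lived and out of the cell cycle by an active transcription programme. TCF1 (the product of Tcf7) and LEF1 are HMG-box proteins that build T cell identity with beta-catenin and Groucho co-repressors, and SATB1 folds chromatin in thymocytes and naive cells. FOXO1, held in the cytoplasm when growth factor signalling through AKT is strong, switches on Klf2 and the homing and survival receptors, while FOXP1 restrains the response to interleukin-7. BACH2 represses effector genes, and TOB1 and BTG1 are anti-proliferative proteins that bring the CCR4-NOT deadenylase to messenger RNAs.

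Each value was taken as log2(intensity + 16), and a fold change is CBS-KO minus WT on that scale, which understates the change of dim probe sets. Array medians lay between 7.37 and 7.55. The probe set of Cbs itself read 7.25, 7.63 and 7.35 in CBS-KO 1 to 3, against 7.37, 7.48 and 7.19 in WT 1 to 3 (log2 fold change 0.06, SE 0.14, limma adjusted p = 0.801), so it did not separate the groups and does not check the labels. The CBS-KO arrays stood apart from one another in sex-linked genes: Xist, the RNA of the inactive X chromosome, read 6.02, 6.18 and 12.23 in CBS-KO 1 to 3 and 12.68, 12.61 and 12.66 in WT 1 to 3, and the Y-linked Eif2s3y read 9.41, 9.19 and 4.87 in CBS-KO 1 to 3 and at most 4.90 in WT. Sex and genotype were therefore partly confounded, and CBS-KO 3 is the single array of that genotype without Y-linked signal. The labelled cell type's markers were bright, with Cd4 at 12.77 ± 0.28 in CBS-KO and 13.34 ± 0.10 in WT cells and Cd3e at 12.93 ± 0.32 in CBS-KO and 13.39 ± 0.10 in WT cells (SD, n = 3 each).

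Promoter windows of 4 of the genes are shown, since Satb1 and Tob1 are the members that passed the test, Btg1 is the measured member whose window holds the FOXO letters, and Klf2 is the textbook target of FOXO1. They run from 250 bases before to 50 after an annotated start, come from RefSeq on GRCm38.p6, and are written in the direction of the gene, with capitals for the FOXO letters GTAAACA and the KLF letters CCNCNCCC on either strand. Satb1 has several annotated starts, and the window of the one lying farthest upstream is given, on the minus strand at chr17:51833241-51833540. Tob1 lies on the plus strand at chr11:94211204-94211503, Btg1 on the plus strand at chr10:96616751-96617050 and Klf2 on the plus strand at chr8:72318812-72319111.
Satb1: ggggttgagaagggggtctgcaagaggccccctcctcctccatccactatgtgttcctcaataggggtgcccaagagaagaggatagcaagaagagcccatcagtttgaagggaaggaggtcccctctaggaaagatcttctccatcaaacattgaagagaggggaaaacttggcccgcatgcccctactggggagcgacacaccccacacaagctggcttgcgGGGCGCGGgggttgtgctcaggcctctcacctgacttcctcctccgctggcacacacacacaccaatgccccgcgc
Tob1: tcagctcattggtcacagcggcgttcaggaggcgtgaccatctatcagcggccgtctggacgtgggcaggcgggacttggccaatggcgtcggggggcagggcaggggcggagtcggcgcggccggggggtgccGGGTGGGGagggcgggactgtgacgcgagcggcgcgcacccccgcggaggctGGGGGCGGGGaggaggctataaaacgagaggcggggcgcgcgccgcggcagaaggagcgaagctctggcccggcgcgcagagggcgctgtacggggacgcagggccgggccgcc
Btg1: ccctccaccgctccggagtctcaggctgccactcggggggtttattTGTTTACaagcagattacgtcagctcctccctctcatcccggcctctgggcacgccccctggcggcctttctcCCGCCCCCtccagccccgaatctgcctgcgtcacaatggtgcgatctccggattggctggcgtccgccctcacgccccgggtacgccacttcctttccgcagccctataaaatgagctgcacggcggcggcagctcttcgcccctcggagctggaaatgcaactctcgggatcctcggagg
Klf2: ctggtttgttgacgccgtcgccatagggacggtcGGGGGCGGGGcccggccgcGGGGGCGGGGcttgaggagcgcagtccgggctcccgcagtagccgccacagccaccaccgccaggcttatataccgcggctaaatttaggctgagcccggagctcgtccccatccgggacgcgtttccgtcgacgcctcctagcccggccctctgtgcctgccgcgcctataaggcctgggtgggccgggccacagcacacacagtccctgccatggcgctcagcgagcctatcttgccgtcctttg
Over 20 windows of all 10 listed genes, the KLF letters stood in 17, from 9 genes, beside 49.5% of 32851 mouse promoter windows. These windows were also richer in G and C, with a median of 62.8% against 52.7% over all promoters, and several windows of 1 gene overlap, so they are not independent. The FOXO letters stood in 2 windows, of Btg1 (on the reverse strand) and Tcf7, beside 3.65% of all promoters. Neither the TCF and LEF letters CTTTGAT nor the AP-1 and BACH letters TGANTCA, each searched on both strands, occurred in any of the 20, beside 3.73% and 7.81% of all promoters; a match or its absence describes these letters in this window only.

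All 9 measured factors read lower in CBS-KO than in WT cells, and in each of them every CBS-KO array lay below every WT array. Satb1 and Tob1 fell past the threshold. Bach2, Foxo1 and Lef1 had differences of -1.07, -0.90 and -0.76 that missed it narrowly, and Foxp1, Klf2, Btg1 and Klf3 had smaller ones, from -0.58 to -0.36. With 2 of 9 lower and 0 higher, the count stands beside a background of 4.47% of the 20856 tested probe sets called lower, and 5.09% called higher (limma, Benjamini-Hochberg adjusted p below 0.05). The lack of overlap in 9 of 9 stands beside 21.7% of tested probe sets that were lower without overlap, and 27.6% among those at least as bright as the dimmest factor. The median log2 fold change was -0.58, beside -0.05 over all tested probe sets. These directions held after quantile normalization and after setting a common array median, but turned for 6 of the 9 when arrays were scaled to T cell identity genes, as given further on.

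**Figure D1:**
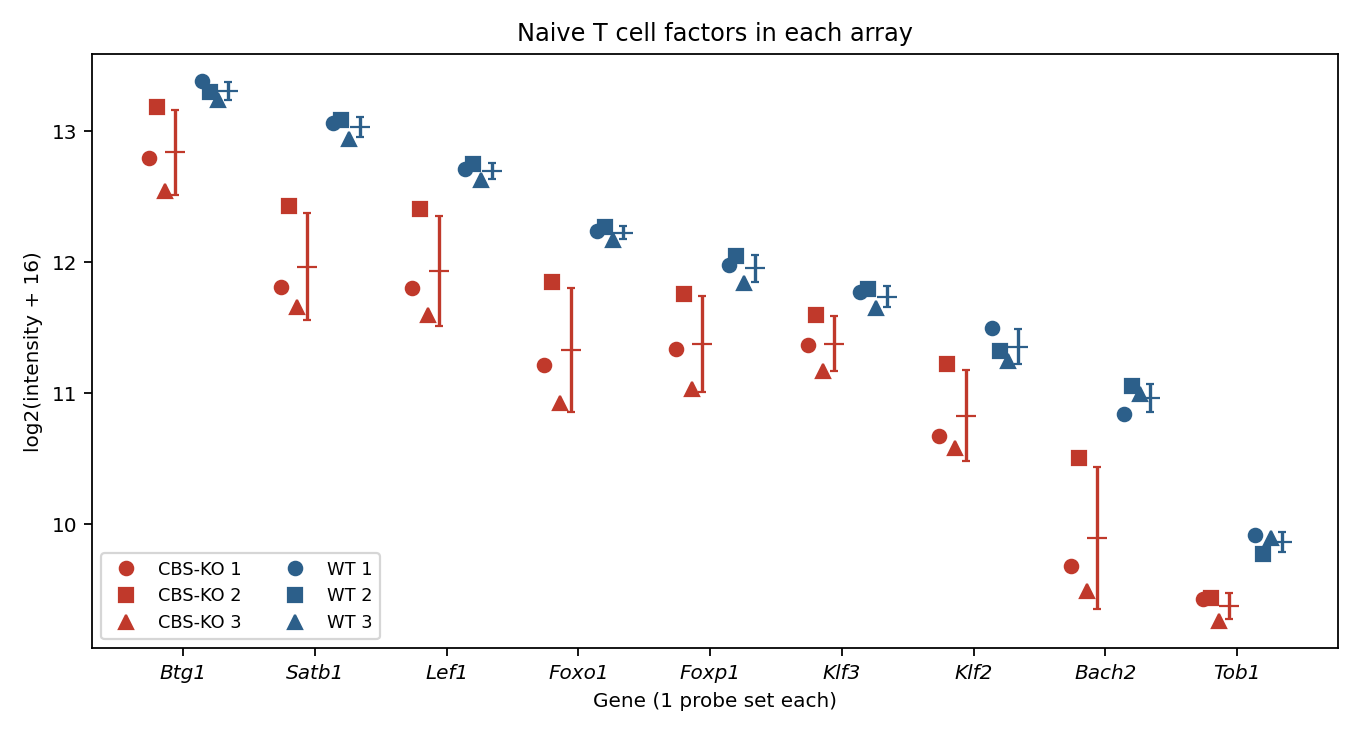
Level of each factor in each array, as log2(intensity + 16), with the mean and SD of each group beside the points (3 arrays each). In all 9 genes the CBS-KO points (red) lie below the WT points (blue), and CBS-KO 2 (squares) is the CBS-KO array nearest to WT.

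Satb1, the chromatin organiser, read 11.81, 12.43 and 11.66 in CBS-KO 1 to 3, against 13.06, 13.09 and 12.95 in WT 1 to 3. The groups lay 0.52 apart at their nearest arrays, the widest such gap among the 9 factors. Its log2 fold change was -1.07 (SE 0.19, 95% confidence interval -1.53 to -0.60, limma adjusted p = 0.0269), which puts CBS-KO at 47.7% of WT. The call was lost without CBS-KO 1 (adjusted p = 0.11), WT 1 (0.12), WT 2 (0.121) or WT 3 (0.071). Satb1 lies on chromosome 17, as does Cbs, but the distance between them was not measured and a part of linkage was not tested.

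The HMG-box factor gene Lef1 read 11.81, 12.41 and 11.59 in CBS-KO 1 to 3, against 12.71, 12.75 and 12.63 in WT 1 to 3. Relative to the WT mean, CBS-KO 2 stood at -0.29 and the other CBS-KO arrays at -0.89 and -1.10. The log2 fold change of Lef1 was -0.76 (SE 0.20, limma adjusted p = 0.0588).

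Among the forkhead factors, Foxo1 read 11.21, 11.85 and 10.93 in CBS-KO 1 to 3, against 12.24, 12.27 and 12.17 in WT 1 to 3. Its groups were 0.32 apart at their nearest arrays, and the spread was 0.47 (SD) in CBS-KO and 0.05 in WT cells. The Foxo1 difference of -0.90 (SE 0.22) had a limma adjusted p of 0.053. Foxp1 read 11.34, 11.76 and 11.03 in CBS-KO 1 to 3, against 11.98, 12.05 and 11.84 in WT 1 to 3. The nearest arrays of the groups, CBS-KO 2 and WT 3, were only 0.08 apart, and the difference was -0.58 (SE 0.18, adjusted p = 0.0899).

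The Kruppel-like factor Klf2, which drives the genes of exit from lymphoid tissue, read 10.67, 11.22 and 10.58 in CBS-KO 1 to 3, against 11.50, 11.32 and 11.24 in WT 1 to 3. CBS-KO 2 and WT 3 differed by 0.02, so the separation of the groups hung on a margin well inside the WT spread of 0.13 (SD). Klf2 had a difference of -0.53 (SE 0.18, limma adjusted p = 0.108). Klf3, a repressor of the same family, read 11.37, 11.60 and 11.17 in CBS-KO 1 to 3, against 11.77, 11.80 and 11.65 in WT 1 to 3. Its difference, -0.36 (SE 0.13, adjusted p = 0.108), was the smallest of the 9 and left CBS-KO at 78.0% of WT.

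Bach2, the repressor of effector genes, read 9.68, 10.51 and 9.49 in CBS-KO 1 to 3, against 10.84, 11.05 and 10.99 in WT 1 to 3. Relative to the WT mean, CBS-KO 1 and CBS-KO 3 stood at -1.29 and -1.48 and CBS-KO 2 at -0.46. The log2 fold change matched that of Satb1 in size (-1.07, SE 0.26), but the CBS-KO spread of 0.54 (SD), the widest of the 9, left a limma adjusted p of 0.0508. Bach2 passed without CBS-KO 2 (-1.38, adjusted p = 0.00202).

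Of the anti-proliferative pair, Tob1 read 9.43, 9.43 and 9.26 in CBS-KO 1 to 3, against 9.92, 9.77 and 9.90 in WT 1 to 3. Here CBS-KO 2 was not set apart from CBS-KO 1, and the SD was 0.10 in CBS-KO and 0.08 in WT cells. Tob1 fell by 0.49 (SE 0.12, limma adjusted p = 0.0479), to 71.2% of WT. That call was lost without CBS-KO 1 (adjusted p = 0.147), CBS-KO 3 (0.0808), WT 1 (0.192), WT 2 (0.152) or WT 3 (0.119). It was also lost after a common array median (0.0569), with no filter (0.0676) and with the replicate block (0.0799). Btg1 read 12.79, 13.19 and 12.54 in CBS-KO 1 to 3, against 13.38, 13.30 and 13.24 in WT 1 to 3. The nearest arrays were 0.05 apart, and the difference of Btg1 was -0.47 (SE 0.16, adjusted p = 0.101).

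The factors varied alike across the arrays. All 9 had the order CBS-KO 2, CBS-KO 1, CBS-KO 3 from highest to lowest, an order seen in 32.3% of tested probe sets. In Tob1, though, the first and second read 9.43 alike to 2 decimals. The array medians had that order too, at 7.55, 7.47 and 7.37 in CBS-KO 2, CBS-KO 1 and CBS-KO 3. No shift was applied, and the part of array brightness in the likeness of the factors was not tested. Pearson's r over the 6 arrays, which share the difference between the groups, ran over the 36 pairs of factors from 0.843 (Klf2 and Tob1) to 0.999 (Foxo1 and Lef1), with a median of 0.969. The spread was larger among CBS-KO than WT arrays in 9 of 9, with a median SD of 0.37 in CBS-KO and 0.08 in WT cells, beside 0.21 and 0.11 over all tested probe sets. The median factor stood at -0.68, -0.29 and -0.93 log2 units from the WT mean in CBS-KO 1 to 3.

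Single arrays decided how many factors passed. Without CBS-KO 2 all 9 passed as lower, from -0.47 for Klf3 (adjusted p = 0.017) to -1.38 for Bach2, where 14.5% of tested probe sets were called lower. Without CBS-KO 3 only Satb1 passed, where 2.69% were called lower. Without CBS-KO 1, WT 1, WT 2 or WT 3, 0 of 9 passed by limma, where 0.225%, 0.12%, 0.0911% and 1.18% of tested probe sets were called lower, and 5, 6, 5 and 9 factors were lower at an unadjusted p under 0.05. The share of all tested probe sets at that unadjusted level was not counted in these fits, so the unadjusted counts have no background. With all 6 arrays, 9 of 9 had an unadjusted p under 0.05, as did 17.3% of tested probe sets in the lower direction. With Y-linked signal as a model term, which makes the estimate that of CBS-KO 3 against WT, 8 of 9 passed (Klf2 had an adjusted p of 0.0558), beside 12.8% called lower, and the median difference was -0.93.

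Genes that mark the T cell as such were lower in the same arrays. Of 10 measured T cell identity genes, all read lower in CBS-KO cells without overlap, and 5 passed (median -0.75). Over all genes tested, with 1 probe set each, 22.4% were lower without overlap and 4.45% were called lower. Those that passed were Trat1, an adaptor of the T cell receptor (-1.50, SE 0.16, limma adjusted p = 0.00835), the receptor chains Cd3d (-1.12) and Cd3g (-0.74), the co-stimulatory receptor Cd28 (-0.86) and the adhesion receptor Cd2 (-0.80). The other members of that list, Cd4, Cd247, Lat, Cd5 and Cd3e, had differences of -0.57, -0.76, -0.56, -0.48 and -0.46. The mean of this list stood at -0.75, -0.47 and -1.14 from its WT mean in CBS-KO 1 to 3, the same order as the naive factors, whose mean stood at -0.78, -0.30 and -0.99. In a bulk sample, fewer cells of a type and less RNA per cell cannot be told apart. Without WT 1 or WT 2, 0 of these genes passed, and without CBS-KO 2 all 10 did.

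**Figure D2:**
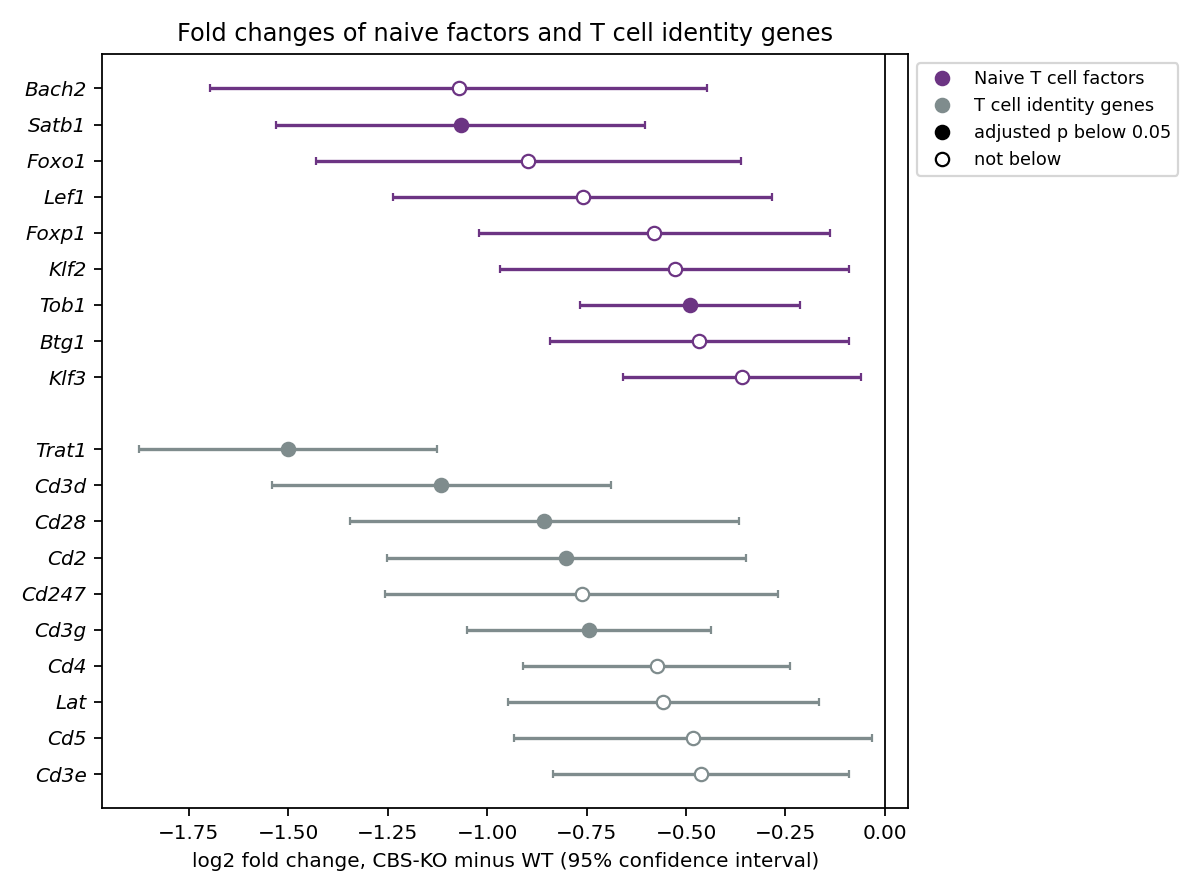
Log2 fold change, CBS-KO minus WT, with its 95% confidence interval for the 9 naive factors and 10 T cell identity genes (limma, 3 arrays per group; filled points have an adjusted p below 0.05). Both sets lie wholly below 0, with medians of -0.58 and -0.75.

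Set against the mean of those T cell identity genes in the same array, the factors no longer lay on 1 side. This scaling adds 0.79 to every difference and takes the median of all tested probe sets to 0.74, so that 67.5% of them were called higher and 0.302% lower. After it, 0 of 9 factors passed in either direction, with limma adjusted p from 0.0518 to 0.89 and 1 factor, Klf3, at an unadjusted p under 0.05. Bach2, Satb1 and Foxo1 kept negative relative differences of -0.29 (95% confidence interval -0.77 to 0.20), -0.28 (-0.66 to 0.10) and -0.11 (-0.51 to 0.29). Lef1 stood at 0.03 (-0.35 to 0.40). Positive values were found for Foxp1 (0.21), Klf2 (0.26), Tob1 (0.30), Btg1 (0.32, -0.02 to 0.66) and Klf3 (0.43, 0.04 to 0.82).

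By array, the relative level of Satb1 was -0.47, -0.13 and -0.24 in CBS-KO 1 to 3, against 0.01, -0.01 and -0.01 in WT 1 to 3, so Satb1 was the factor whose CBS-KO arrays all lay below WT on this scale. Klf3 was at 0.38, 0.33 and 0.57 in CBS-KO 1 to 3, against 0.01, -0.01 and -0.01 in WT 1 to 3. It, Foxp1 and Btg1 were the 3 factors whose CBS-KO arrays all lay above WT, and the groups of the other 5 overlapped. The share of all tested probe sets without overlap on this scale was not counted. Since 67.5% of them were called higher on it by limma, a place above WT does not set these 3 factors apart. Measured against T cell identity genes, then, the factors ran from Bach2 and Satb1 at the low end to Btg1 and Klf3 at the high end, with intervals that mostly include 0.

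**Figure D3:**
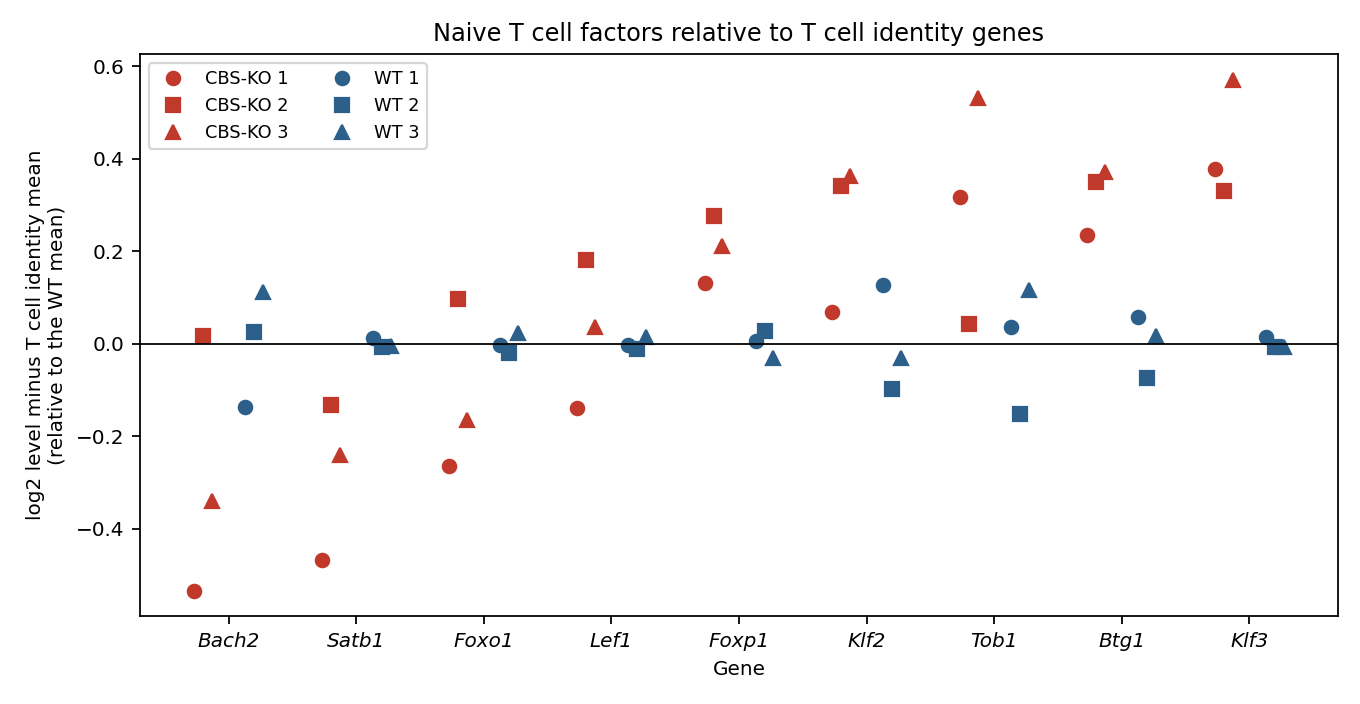
Each factor's log2 level minus the mean of 10 T cell identity genes in the same array, with the WT mean set to 0. Satb1 lies below WT in every CBS-KO array, Foxp1, Btg1 and Klf3 lie above it, and the other 5 genes overlap. On this scale limma called 67.5% of all tested probe sets higher.

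Markers of other cell types moved with the genotype. Neutrophil markers passed as higher in 10 of 10 measured genes (median 3.59), with S100a8, a calprotectin subunit, at 10.61, 10.81 and 10.00 in CBS-KO 1 to 3, against 6.31, 6.50 and 6.76 in WT 1 to 3. Monocyte and macrophage markers passed in 8 of 9 (median 2.37) and erythroid markers in 8 of 8 (median 3.03), including Slc4a1, the red cell anion exchanger (4.31, SE 0.38). In the CBS-KO arrays, the mean log2 level of the list minus its WT mean was 3.46 to 3.87 for neutrophil genes. It was 1.97 to 2.45 for monocyte and 2.62 to 3.94 for erythroid genes. The WT arrays ran from -0.28 to 0.40, -0.25 to 0.48 and -0.44 to 0.35, in the same order. The erythroid mean was 3.59, 2.62 and 3.94 in CBS-KO 1 to 3, so it was lowest in CBS-KO 2, the array whose naive factors were nearest to WT. NK cell markers passed as higher in 4 of 8 and dendritic cell markers in 3 of 6, beside 6.62% of all genes tested. The NK list was Ncr1, Klrb1c, Gzma, Prf1, Klra8, Tyrobp, Fcer1g and Il2rb, and 2 of these 8 had negative values. With WT 2 left out, the counts were 5 for neutrophil, 0 for monocyte and 2 for erythroid genes, and with WT 1 left out 5, 1 and 3. In the same order of lists, the counts without CBS-KO 1 were 6, 4 and 2. For NK cell markers the count was 0 without WT 1 or WT 2 and 1 without CBS-KO 1. For dendritic cell markers it was 0 without WT 2 and 1 without WT 1, WT 3 or CBS-KO 1. The part of these cells in the levels of the naive factors was not tested.

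B cells express Foxo1, Foxp1, Bach2 and Klf2 as well. B cell markers passed limma in 0 of 8 genes, also at an unadjusted p under 0.05 (median -0.17), but their mean varied widely, with CBS-KO 1 to 3 at -0.43, 1.10 and -0.89 from the WT mean, against -0.22, -0.16 and 0.38 in WT 1 to 3. Without CBS-KO 2, 3 of the 8 passed as lower (median -0.68), and the median turned to 0.24 without CBS-KO 3 and 0.015 without CBS-KO 1. Cd79a, a chain of the B cell receptor, read 10.68, 12.01 and 10.19 in CBS-KO 1 to 3, against 10.82, 10.68 and 11.32 in WT 1 to 3. CBS-KO 2 was thus highest in B cell markers and, among CBS-KO arrays, in all 9 naive factors; the part of B cells in that was not tested. Markers of CD8 T cells passed in 0 of 6 by the same measures (median 0.08), with Cd8a highest in CBS-KO 2 as well (9.13, against 7.71 in both other CBS-KO arrays). Without CBS-KO 2, 1 of these 6 passed as lower (median -0.02). Of 4 measured thymocyte genes, 1 was lower, Themis (-1.04), a count of 0 without CBS-KO 1 or any 1 of the WT arrays, and Rag1 lay below the filter on all arrays' mean.

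**Figure D4:**
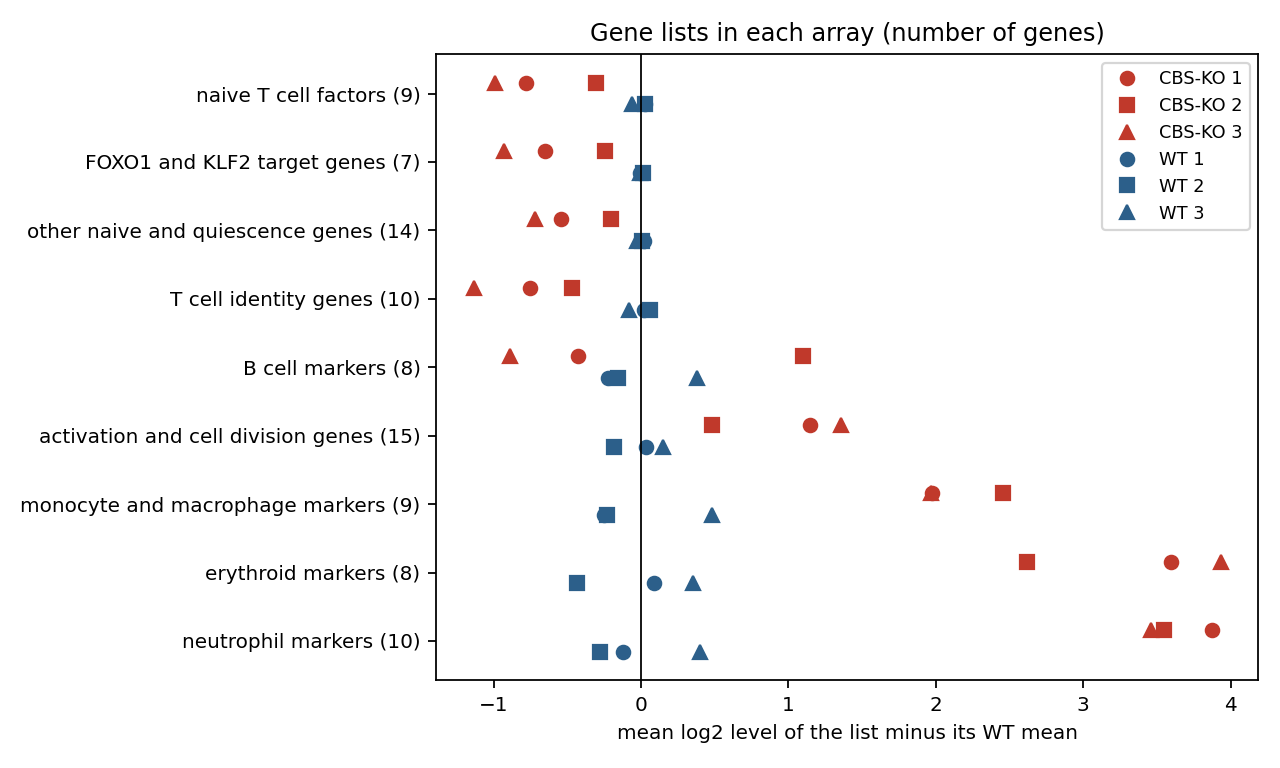
Mean log2 level of each gene list in each array, with the list's WT mean set to 0 and the number of genes in brackets. The 3 naive lists and the T cell identity list lie below WT in every CBS-KO array, while neutrophil, erythroid and monocyte lists lie 1.97 to 3.94 above.

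The genes that FOXO1 and KLF2 are known to drive read lower as well. Of 7 measured target genes, all had negative log2 fold changes (median -0.64), 5 without overlap, and 2 passed. Over 12776 genes with 1 probe set per gene, 52.0% had negative values and 22.4% were lower without overlap. Of the same genes, 4.45% were called lower and 6.62% higher. S1pr4, a sphingosine phosphate receptor, fell to 11.13, 11.35 and 10.78 in CBS-KO 1 to 3, against 11.76, 11.80 and 12.13 in WT 1 to 3 (-0.81, SE 0.17, limma adjusted p = 0.0385). Cdkn1b, the cell cycle inhibitor p27, fell by 0.56 (SE 0.13, adjusted p = 0.0484). The homing receptor gene Ccr7 (-0.60, adjusted p = 0.0844), the integrin chain Itgb7 (-0.67, 0.0657), the survival receptor Il7r (-0.64, 0.0908) and the egress receptor S1pr1 (-0.70, 0.0909) did not pass. Bcl2 had the smallest difference (-0.28, adjusted p = 0.347), and its groups overlapped. The list mean stood at -0.65, -0.25 and -0.93 from WT in CBS-KO 1 to 3, beside T cell identity means of -0.75, -0.47 and -1.14. With arrays scaled to T cell identity genes, 1 of the 7 targets was negative (median 0.14). On that scale 1 target was called higher, as were 67.5% of all tested probe sets.

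Upstream of FOXO1, regulators passed limma in both directions. Of 11 measured genes of phosphoinositide 3-kinase and AKT signalling or of FOXO1 modification and turnover, 2 were lower and 1 higher (median -0.23). Over all genes tested, 4.45% were called lower and 6.62% higher. Pik3ip1, an inhibitor of phosphoinositide 3-kinase, read 9.80, 10.52 and 9.50 in CBS-KO 1 to 3, against 11.18, 11.10 and 11.02 in WT 1 to 3 (-1.16, SE 0.25, limma adjusted p = 0.0398). Rictor, the core of the mTORC2 complex that phosphorylates AKT, fell by 0.81 (SE 0.14, adjusted p = 0.0217). Skp2, a ubiquitin ligase subunit that targets p27 and FOXO1, was higher at 9.85, 9.10 and 10.15 in CBS-KO 1 to 3, against 8.52, 8.35 and 8.61 in WT 1 to 3 (1.20, SE 0.27, adjusted p = 0.0419). Akt1 (0.33) and Akt2 (0.07) did not pass.

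The partners of TCF1 and LEF1 did not pass singly: 0 of 13 were called by limma in either direction, and 8 were lower and 1 higher at an unadjusted p under 0.05. Among all 12776 genes tested, 2088 were lower and 2180 higher at that unadjusted level. Of the 13, 12 had negative values, beside 52.0% of all genes tested, and the median was -0.28. The lowest was Bcl9, a beta-catenin co-activator (-0.83, SE 0.22, adjusted p = 0.0594), and Tle4, a Groucho co-repressor, had -0.45. Ctnnb1, beta-catenin itself, differed by -0.01 (SE 0.10). Axin2, a common readout of beta-catenin signalling, had -0.46 (adjusted p = 0.125).

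BACH2 works with small MAF proteins and competes with AP-1 factors at effector genes. Of 13 genes in this list, 1 was lower and 2 were higher (median -0.02), beside 4.45% and 6.62% of all genes tested. Counts this small do not set the list apart. Mafg, a small MAF partner, was higher at 9.48, 9.49 and 9.54 in CBS-KO 1 to 3, against 8.87, 8.67 and 8.93 in WT 1 to 3 (0.68, SE 0.12, limma adjusted p = 0.0259), and S100a4, a calcium-binding protein of effector and myeloid cells, was higher by 0.64 (adjusted p = 0.0347). Batf, an AP-1 factor of effector differentiation, fell by 0.59 (SE 0.12, adjusted p = 0.0346). Prdm1, which BACH2 is known to repress (0.59, adjusted p = 0.194), and the T helper factor Gata3 (-0.71, 0.0541) did not pass.

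For TOB1 and BTG1, most genes of the deadenylase they recruit differed little. Of 14 measured genes, which were subunits of the CCR4-NOT and PAN complexes and Pabpc1, the cytoplasmic poly(A)-binding protein, 1 was lower and 0 higher (median -0.06). Among all genes tested, 4.45% were called lower and 6.62% higher, so 1 call does not set this list apart. Cnot6l, a catalytic deadenylase, read 11.75, 11.95 and 11.58 in CBS-KO 1 to 3, against 12.37, 12.35 and 12.43 in WT 1 to 3 (-0.62, SE 0.11, limma adjusted p = 0.0244). Cnot7 and Cnot8, the subunits that bind TOB and BTG proteins, differed by -0.08 (SE 0.12) and -0.05 (SE 0.11).

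Close relatives of the factors did not share 1 direction. Among 16 measured paralogs, 0 were lower and 2 higher (median -0.14), beside 4.45% and 6.62% of all genes tested. So few calls do not set the paralogs apart. Klf9 was higher at 9.23, 9.15 and 9.79 in CBS-KO 1 to 3, against 8.32, 7.83 and 8.36 in WT 1 to 3 (1.22, SE 0.23, limma adjusted p = 0.0291), and Tcf7l2, a relative of Lef1, by 0.96 (SE 0.21, adjusted p = 0.0414). Klf7 (-0.85, adjusted p = 0.059), Klf6 (-0.65) and Btg2 (-0.56) had negative values that did not pass, Klf11 (0.45), Klf4 (0.58) and Klf10 (0.60) positive ones. Foxo3 differed by 0.33 (adjusted p = 0.0977), Foxp3 by -0.27 (0.565), Tob2 by -0.21 (0.285) and Bach1 by 0.11 (0.552). Differences between a factor and its paralog were not tested.

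Other genes of the naive and quiescent state mostly read lower. Of 14 measured, 13 had negative values (median -0.55), beside 52.0% of all genes tested. Slfn2, which keeps T cells quiescent, passed as lower (-0.71, SE 0.16, limma adjusted p = 0.0438). Ms4a4b (-0.70, adjusted p = 0.0503), Actn1 (-0.88, 0.0527) and Peli1 (-0.87, 0.0536) missed the threshold. Among 17 other T cell transcription factors, 14 had negative values (median -0.33) and 2 were lower, Id3, an inhibitor of E proteins (-1.30, SE 0.19, adjusted p = 0.0174), and the ETS factor Elf1 (-0.43, SE 0.10, adjusted p = 0.0489). Bcl11b (-0.79, adjusted p = 0.0712) and Ets1 (-0.64, 0.0727) did not pass, and Runx1 differed by -0.03. Among all genes tested, 4.45% were called lower. With arrays scaled to T cell identity genes, 3 of the 14 naive genes (median 0.24) and 2 of the 17 factors (median 0.45) were negative. On that scale 3 and 10 of them were called higher, as were 67.5% of all tested probe sets.

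Genes of activation and cell division ran the other way. Of 15 measured, 5 were higher and 0 lower (median 1.25), beside 6.62% and 4.45% of all genes tested. Without overlap 12 were higher, beside 2401 of the 12776 genes tested. Mki67, a marker of dividing cells, read 12.44, 11.59 and 12.56 in CBS-KO 1 to 3, against 10.55, 10.15 and 10.82 in WT 1 to 3 (1.69, SE 0.29, limma adjusted p = 0.0241). Tfrc, the transferrin receptor, which red cell precursors carry in abundance, was higher by 2.36 (SE 0.42), Ccne1, cyclin E1, by 1.93 (SE 0.41), Cdk6 by 1.25 and Mcm2 by 1.31. The early activation gene Cd69 had a value of -0.56 (adjusted p = 0.151). The list mean was 1.15, 0.48 and 1.35 above WT in CBS-KO 1 to 3, beside erythroid means of 3.59, 2.62 and 3.94; the part of red cell precursors was not tested. By limma, 0 genes of these 9 related lists passed without WT 1 or WT 2 (44 and 48 at an unadjusted p under 0.05), and 1 did without CBS-KO 1, 9 without CBS-KO 3, 2 without WT 3 and 72 without CBS-KO 2, beside 19 with all arrays. The share of all genes at an unadjusted p under 0.05 was not counted with single arrays left out.

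**Figure D5:**
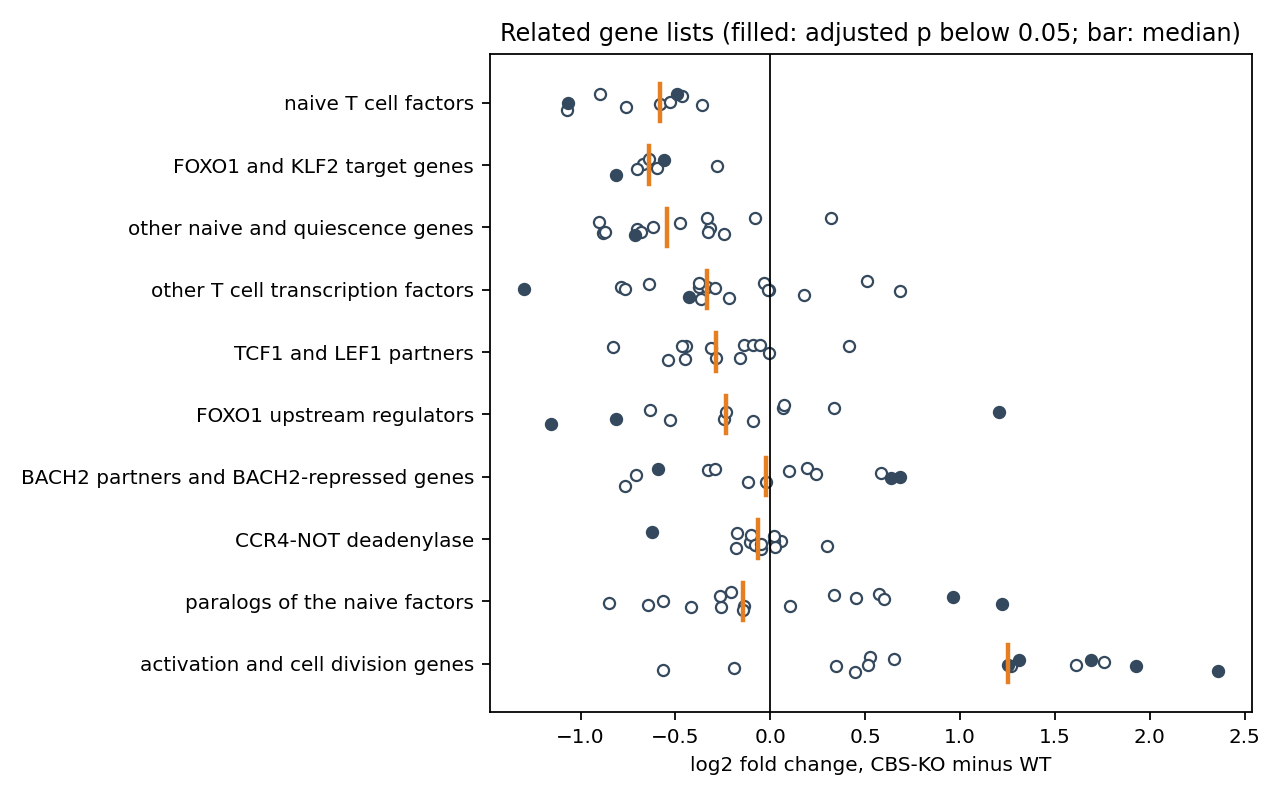
Log2 fold change, CBS-KO minus WT, of every measured gene in the naive factors and 9 related lists (limma, 3 arrays per group). The FOXO1 and KLF2 targets lie wholly below 0 with a median of -0.64, and activation and cell division genes have a median of 1.25.

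The genes whose profile over the 6 arrays was most like the mean of the 9 factors were Trbv1, a T cell receptor beta variable gene segment, Ggt5, Tlr1, Atp1b1 and Cyp4f13, with Pearson's r of 0.999, 0.999, 0.999, 0.998 and 0.998. Trbv1 read 11.21, 11.78 and 10.91 in CBS-KO 1 to 3, against 12.19, 12.23 and 12.05 in WT 1 to 3 (-0.85, limma adjusted p = 0.053). These were the 5 highest values among all tested probe sets that name 1 gene, over 6 points that share the difference between groups, and they describe likeness in these arrays only.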

How the data were processed

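Intensities per probe set, 1 for each of 6 arrays on a linear scale, were used as the authors deposited them; per the labels' protocols, biotinylated cRNA was made from total RNA by the Affymetrix protocol. The sources used here do not give the background correction, the normalization or the probe set summary. The deposited value table holds positive values that are not whole; whether arrays were centred is unknown, and their medians differed by -0.03 between groups, so no shift was applied.

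Values were log2(intensity + 16). Probe sets with a mean above the 40th percentile (6.99) were tested, 20856 of 34760, of which 13862 name 1 gene; all 9 naive factors passed. Genes were named from the platform annotation. Groups were compared with limma 3.58.1 in R 4.3.3 (eBayes with trend, two-sided, Benjamini-Hochberg over all tested probe sets, threshold 0.05), tested on simulated data. In gene lists a gene counts by its brightest tested probe set; without replicate information beyond the labels, p-values measure the spread between these arrays. An exact permutation test of 3 against 3 arrays cannot go below 0.1, and the number of arrays limits precision.

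The factors and the lists were chosen with earlier results of these data known. Named were every factor, Cbs, sex-linked genes, defining markers, T cell identity genes, list genes of smallest p and the 5 genes most like the factors; list genes beyond the 4 of smallest p were chosen after their values were seen. Arrays were taken to have Y-linked signal from 4 Y-linked genes. Python 3.11.15 with matplotlib 3.10.9 drew the figures.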

Additional observations from a re-analysis of the deposited data

How the results depend on the processing

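The number of naive factors past the threshold, 2 with all 6 arrays, was 4 after a common array median, which Tob1 did not pass, 4 with a filter at the 60th percentile, 1 with no filter, 5 when only probe sets that name 1 gene were tested, 5 with probe sets averaged per gene, 8 with Y-linked signal as a term, 9 with array weights and 0 after scaling to T cell identity genes. It stayed at 2 after quantile normalization, with offsets of 1 and 64, and with eBayes without a trend or with robust fitting. With the replicate number as a block it was 4, Bach2, Foxo1 and Lef1 passing and Tob1 not (adjusted p = 0.0799). Deviations of same-numbered arrays correlated at 0.063, 0.158 and 0.108. Every array correlated best with its own number, but CBS-KO 1 only narrowly, at 0.0475 with WT 3. The labels state no pairing, and pairing was not tested. Leaving out single arrays gave 0 to 9 factors. Calls over all probe sets moved as well. Of 20856 tested, 933 were called lower in the main fit and 7783 with array weights. A common array median gave 953, the replicate block 924 and scaling to T cell identity genes 63. The calls were 524 of 34760 with no filter and 910 of 13904 with the filter at the 60th percentile. They were 1012 of 13862 with probe sets that name 1 gene and 1004 of 11962 with probe sets averaged per gene. The fitted median was -0.58; it was -0.93 with the Y-linked term and 0.21 after scaling to T cell identity genes, where Lef1 (0.026), Foxp1 (0.21), Klf2 (0.26), Tob1 (0.30), Btg1 (0.32) and Klf3 (0.43) turned positive, because that scaling adds 0.79 to every difference. Relative to the mean of T cell identity genes the median was 0.21, and 0.043 with array weights. Of the 9 related lists, 19 genes passed, against 8 with no filter, 32 with probe sets that name 1 gene, 34 with probe sets averaged per gene, 57 with the Y-linked term, 70 after scaling to T cell identity genes, 94 with array weights, and 0 to 72 leaving out single arrays. After the T cell scaling, every call in the related lists was higher, whereas the 19 ran in both directions. Apart from the filters, the T cell scaling and the arrays left out, the cause of the shifts in these counts and medians was not tested. Quantile normalization and a common array median kept all 9 factors negative.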
